A study of Mus musculus with 8 samples.

Results

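The clustered histone genes were taken as every row of the deposited gene tables whose symbol starts with Hist1h, Hist2h, Hist3h or Hist4h, which gave 71 of 45706 genes. By class they were 6 linker histone H1 genes, 20 H2A, 20 H2B, 12 H3 and 13 H4 genes, and by locus 56 in Hist1 on chromosome 13, 11 in Hist2 on chromosome 3, 3 in Hist3 on chromosome 11 and 1 in Hist4 on chromosome 6. The symbol Hist2h2bb stood on 2 rows, which are told apart here by their Ensembl identifiers. RNA was sequenced from natural killer (NK) cells titled as splenic (spNK, 4 libraries) or as tumour-infiltrating (tuNK, 4 libraries). The sample titles and the tissue labels contradict each other in all 8 samples, since those titled spNK are labelled as tumour and those titled tuNK as spleen, and the groups and directions here follow the titles. Both groups came from BALB/c mice bearing a subcutaneous tumour of CT26_β2m-/- cells, a mouse colorectal carcinoma line without β2-microglobulin and so deficient in MHC class I at the surface. No source used here gives the age of the mice or says whether replicates were separate mice or pools, so the p-values cover the spread among these libraries, which may be technical. Both tissues were digested with enzymes at 37 °C for 60 min, cells from tumours passed a Percoll gradient, and NK cells were sorted magnetically and by flow cytometry with markers that the labels do not name. Libraries came from 20 ng of RNA after selection of polyadenylated RNA with a directional kit, read as pairs of 60 nt.

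Histones are the proteins around which DNA is wound: H2A, H2B, H3 and H4 form the nucleosome core and H1 binds the DNA that links cores. The clustered genes are transcribed mainly in S phase, when newly copied DNA has to be packed, and most of their mRNAs end not in a poly(A) tail but in a short stem-loop, which is bound by the stem-loop binding protein encoded by Slbp. A library of polyadenylated RNA therefore misses most of this mRNA, and what it does catch can come from transcripts that run past the stem-loop to a polyadenylation signal, as Hist1h1c and Hist1h2bc are known to make in cells that have left the cell cycle, or from RNA that carries a run of A inside. The levels below are levels in such libraries, not the whole pool of histone mRNA in the cells.

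Libraries held between 38745721 and 53886923 estimated counts, and the share of a library's genes with a value that was not whole, a sign of reads split between genes, was 7.9% to 8.82%. NK cell markers were present in both groups, with a sum in counts per 1000000 (CPM) over 12 of 12 genes of 14322 to 20080 in spNK and 5126 to 7063 in tuNK. Genes listed as markers of other cell types were present too. Mesenchymal markers (14 genes) summed to 98.2 to 160 CPM in spNK and 2946 to 4826 in tuNK, led in tuNK by Col1a2 and Fn1. In spNK this list was led by Thy1, at a mean TMM-scaled CPM of 101, while Col1a2 stood at 1.42 there. Erythroid markers (10 genes found) summed to 499 to 1626 in spNK and 88.9 to 155 in tuNK, platelet markers (12) to 479 to 845 and 46.3 to 110.5, plasma cell markers (8) to 296 to 1208 and 134 to 147, neutrophil markers (10) to 38.5 to 166 and 0.176 to 0.768, B cell markers (10) to 19.9 to 44.5 and 0.772 to 2.04, macrophage and monocyte markers (12) to 916 to 1126 and 384 to 508, T cell markers (12) to 294 to 354 and 102 to 155, and epithelial markers (11 found) to 1.37 to 10.96 and 47.5 to 63.5. Listed at 0 in every tuNK library were the B cell gene Ms4a1, the neutrophil genes Mpo and Elane, the platelet gene Tubb1 and the erythroid gene Slc4a1. A few genes led some of these sums, here as mean TMM-scaled CPM in spNK and tuNK. In the macrophage and monocyte list they were Ccr2 (563 and 313) and Ly6c2 (273 and 60.8), while Adgre1 stood at 1.09 and 0.0702. Cd14 went the other way, from 0.280 to 60.3. In the edgeR test given below it was the 1 gene of that list called higher, with 5 lower and 4 neither. Of all genes, 35.6% were called higher and 34% lower. In the T cell list the leading genes were Trbc1 (86.1 and 47.0), Cd28 (90.3 and 37.1) and Trbc2 (73.7 and 34.7), while Cd3e stood at 0.366 and 0. In tuNK, Car2 (94.6) and Tfrc (31.3) led the erythroid list. Xbp1 (98.0) and Sdc1 (39.1, against 4.46 in spNK) led the plasma cell list in tuNK, where Jchain stood at 0.00635. Itgb3 (70.9) led the platelet list in tuNK, where Pf4 stood at 0.019. The part of other cell types in the histone levels was not tested. In bulk samples, fewer cells of a type and less RNA per cell cannot be told apart.

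Of the 71 histone genes, 39 had counts in all 8 libraries, 27 in some and 5 in none. The 5 without counts were Hist1h1t, Hist1h2aa and Hist1h2ba, which encode testis histones, and Hist1h4m and Hist2h3c1. Hist2h3c1 has no stretch of 60 bases of its own. Of its stretches, 100% occur in the predicted gene Gm20634, which had 6.58 to 336 counts per library. Of those of Hist1h4m, 89.5% occur in Hist1h4n. Whether these genes are at 0 through the division of reads was not tested. A count of 0 allows up to 3 counts, which is 0.0557 to 0.0774 CPM in these libraries. This covers counting error only, not the division of reads between genes that share sequence. The groups' means reached 1 CPM in at least 1 group for 38 genes. Detection was uneven across genes: per length, in transcripts per 1000000 (TPM), Hist1h2ap averaged 2301 over the 8 libraries and ranked 124 among all genes in spNK and 77 in tuNK, while the median histone gene averaged 2.87 TPM. The next 2 in TPM were H2A and H4 genes, Hist2h2aa1 with 87.3 in spNK and 15.1 in tuNK, and Hist1h4n with 45.3 and 19.9. The class medians were 11.8 TPM for H1, 4.81 for H2A, 4.74 for H4, 1.86 for H2B and 1.82 for H3.

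The 3′ ends of the annotated transcripts differ between genes, and were not read from these libraries. They are printed because the run of A just before the stem-loop sets Hist1h2ap and Hist1h2ao apart from the other genes. Each line gives 14 bases and then the 16-base stem-loop in capitals, 5′ to 3′ on the transcript, from GENCODE M21 transcripts (GRCm38).
Hist1h2ap: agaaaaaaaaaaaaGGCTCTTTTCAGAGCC
Hist1h2ao: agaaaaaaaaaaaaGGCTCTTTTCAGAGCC
Hist1h2ae: gtaaaaaaaacaaaGGCTCTTTTCAGAGCC
Hist1h3c: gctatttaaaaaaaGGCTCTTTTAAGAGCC
Hist1h1c: ctaacaatccaaaaGGCTCTTTTCAGAGCC
Hist2h2aa1: cgagctcctaaaaaGGCTCTTTTCAGAGCC
Hist1h4c: cactgtcaacaaaaGGCCCTTTTCAGGGCC
Hist1h4i: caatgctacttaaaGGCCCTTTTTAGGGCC
The stem-loop was searched on the sense strand of the transcripts as GG, any 2 bases, CTTTT, any base, AG, any 2 bases and CC. It occurred in 42 of 65 protein-coding histone genes (64.6%) and in 19 of 21886 other protein-coding genes (0.0868%). Genes without a match include Hist1h2ai, Hist1h3h and Hist1h4k, whose annotated transcripts hold 0 bases after the stop codon. In such transcripts the search could find no stem-loop, and sequence past annotated ends was not read. The 64.6% is therefore not the share of histone genes that have a stem-loop. It took 6 forms. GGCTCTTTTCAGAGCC stood in 24 genes of the H1, H2A, H2B and H3 classes, and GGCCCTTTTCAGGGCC stood in 7 genes, all of them H4. Hist1h2ap and Hist1h2ao carry 12 A in a row directly before the stem-loop. Anywhere in the 14 bases before it, this was the longest run among the 42, and the next were 8 in Hist1h2ae, where the run does not reach the stem-loop, and 7 in Hist1h3c. A run of at least 12 A anywhere in a transcript was found in 3 of 65 histone genes (4.62%), the third being Hist1h2ac with 15 A in a row outside the 14 bases before its stem-loop, and in 9.4% of the other protein-coding genes. In TPM over all libraries Hist1h2ap lay far above every other gene with a stem-loop, whereas Hist1h2ao and Hist1h2ae, with 12 and 8 A, averaged 2.87 and 4.88. Of the 60-base stretches of Hist1h2ao, 6.65% occur in no other gene and 93.3% also occur in Hist1h2ap. How the reads were divided between these copies is therefore uncertain, and their levels cannot be compared by A run. A polyadenylation signal (AATAAA or ATTAAA, sense strand) in the last 40 bases of an annotated transcript was found for 17 of 65 histone genes (26.2%), against 76.8% of the other genes. Where an annotated transcript stops at the stop codon, this search too had no sequence beyond it.

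**Figure D1:**
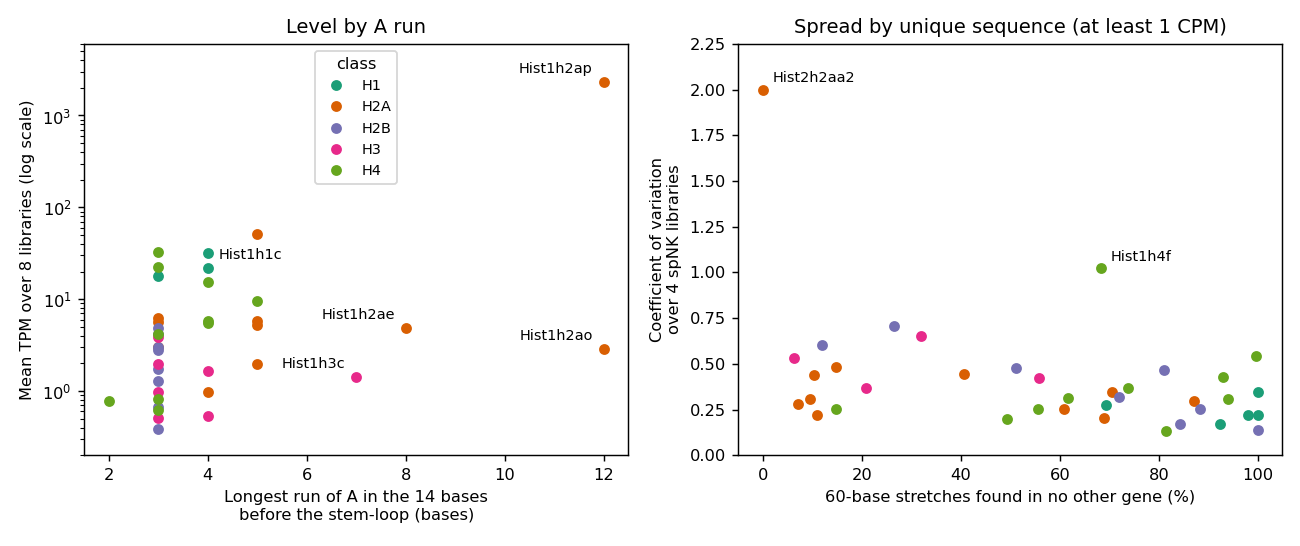
Left: mean TPM over 8 libraries (log axis) against the longest run of A in the 14 bases before the stem-loop (bases), 1 point per histone gene with a stem-loop and a level above 0, coloured by class. Right: coefficient of variation of TMM-scaled CPM over the 4 spNK libraries against the share (%) of a gene's 60-base stretches found in no other gene, for genes of at least 1 CPM in either group. Hist1h2ap stands alone at the top of the left panel with a run of 12 A. Hist1h2ao, with the same run, shares 93.3% of its 60-base stretches with Hist1h2ap, so the division of reads between them is uncertain. Hist2h2aa2, with no stretch of its own, has the largest variation on the right.

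Across all genes, 9744 of 14006 tested (69.6%) passed an adjusted p of 0.05 in edgeR's quasi-likelihood test with Benjamini-Hochberg adjustment, 35.6% higher and 34% lower in tuNK. Of the histone genes, 58 passed the filter on low counts, and 2 of these were called higher in tuNK, 15 lower and 41 neither. Hist1h2ap and Hist2h3c2 were those called higher. Both shares lay below those of all genes. The median log2 difference (tuNK minus spNK) was -0.64 for the histone genes and 0.02 for all genes tested, and 43 of the 58 were negative. Groups did not overlap for 17 of the 58, against 67.1% of all genes. Without spNK 3 and tuNK 1, which stand apart below, the counts were 2 higher and 15 lower. All these calls rest on TMM scaling, and with libraries scaled to leukocyte genes, described last, 17 histone genes were higher and 3 lower.

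Hist1h2ap, an H2A gene of a single exon at chr13:21833026-21833507 on the minus strand, was the histone transcript with the highest level in every library. Its TMM-scaled CPM was 339, 335, 561 and 342 in spNK 1 to 4 and 641, 1036, 1039 and 969 in tuNK 1 to 4. Every tuNK library lay above every spNK library, and spNK 3 and tuNK 1 were the pair that came closest. The mean rose from 394 ± 111 to 921 ± 189.7 (SD, n = 4 each), a log2 difference of 1.22 with a standard error of 0.21 and an adjusted p of 4.19e-04, and the call was kept when any 1 library was left out, with differences of 1.14 to 1.43. In TPM it stood at 1387, 1306, 2187 and 1368 in spNK and at 2456, 3434, 3236 and 3037 in tuNK. Hist1h2ap held 60.3%, 56.4%, 72.0% and 54.2% of all histone counts in spNK 1 to 4 and 82.2%, 88.1%, 91.4% and 89.6% in tuNK 1 to 4. Of its 60-base stretches, the read length of these libraries, 7.09% occurred in no other gene and 92.9% also occurred in Hist1h2ao, so the counts of these copies are uncertain one by one. Hist1h2ao was given 126, 0, 0 and 0 counts in spNK and 15.2, 26.8, 21.3 and 69.1 in tuNK. With 12 H2A genes that share sequence summed into 1 row, the log2 difference was 1.2 with a standard error of 0.20 and an adjusted p of 4.35e-04. Genes were joined, in chains, where at least 50% of the 60-base stretches of 1 gene occurred in another. The 12 include Hist1h2ac, 87.1% of whose stretches occur in no other gene.

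The other H2A genes that were called moved the opposite way. Hist2h2aa1 (chr3:96245497-96246082, plus strand) stood at 21.1, 32.2, 30.1 and 36.9 CPM in spNK and at 7.01, 7.68, 4.80 and 4.87 in tuNK. The groups did not overlap, and the level fell by 2.30 on the log2 scale (standard error 0.22, adjusted p = 4.50e-06). Its neighbour Hist2h2aa2 shares 100% of its 60-base stretches with Hist2h2aa1 and was given 8.14 CPM in spNK 1, 0 in the other spNK libraries and in tuNK 1, and 1.56, 2.69 and 2.19 in tuNK 2 to 4. Hist1h2al, annotated as a processed pseudogene, shares 57.1% of its stretches with Hist2h2aa2 and was at 4.70, 10.7, 4.22 and 8.92 CPM in spNK and 1.11, 1.02, 1.24 and 1.79 in tuNK, a fall of 2.46 (standard error 0.37, adjusted p = 1.45e-04). These 3 copies summed into 1 row fell by 2.12 with a standard error of 0.14 and an adjusted p of 3.45e-07. Hist2h2aa1 also overlaps the predicted gene Gm20634 on the same strand, which holds 89.2% of its stretches and was given 171, 192, 213 and 336 counts in spNK and 69.8, 46.3, 11.8 and 6.58 in tuNK. Hist3h2a, at 17.2, 18.4, 11.6 and 19.0 CPM in spNK and 7.92, 9.13, 2.82 and 5.49 in tuNK, fell by 1.38 (standard error 0.33, adjusted p = 0.00318) without overlap. Trim17, which shares 31.1% of its stretches, had at most 9.59 counts in a library. Of the 15 H2A genes tested, 1 was called higher, 3 lower and 11 neither, against 35.6% higher and 34% lower of all genes. The other H2A genes of at least 1 CPM were not called, among them Hist1h2ae with 1.16 and 1.30 CPM and Hist1h2ai with 2.13 and 1.43 CPM in spNK and tuNK.

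For H2B, the partner of H2A in the core, 6 of 15 genes tested were called lower and 0 higher, against 34% and 35.6% of all genes, and all 6 are among those named here. Hist1h2bc (chr13:23684199-23692908, plus strand) had the highest level of the class. It stood at 17.6, 18.2, 19.1 and 32.0 CPM in spNK and at 4.04, 3.28, 2.51 and 5.46 in tuNK, and fell by 2.51 with a standard error of 0.28 and an adjusted p of 1.60e-05. The groups were far apart, with spNK 4 above the other spNK libraries. Hist2h2be, all of whose 60-base stretches are its own (100%), stood at 9.70, 8.94, 10.4 and 7.45 CPM in spNK and 3, 3.8, 1.17 and 3.21 in tuNK, a fall of 1.71 (standard error 0.33, adjusted p = 7.81e-04). Its counts were whole numbers in every library. Hist1h2be fell by 1.28 (standard error 0.32, adjusted p = 0.00415), from 3.78 ± 0.655 to 1.55 ± 0.46 CPM, and Hist2h2bb (ENSMUSG00000050936), annotated as a long non-coding RNA, from 1.74 ± 0.442 to 0.374 ± 0.106. The calls of Hist1h2br and Hist3h2ba were less firm. Hist1h2br stood at 0.884, 2.68, 2.02 and 4.53 CPM in spNK and at 0, 0.699, 0.483 and 0.867 in tuNK. The groups did not overlap but came close, and the fall of 2.29 (standard error 0.88, adjusted p = 0.0376) kept its call in 4 of 8 fits that each left out 1 library. Hist3h2ba went from 1.81 ± 0.839 to 0.479 ± 0.368 and kept it in 3 of 8.

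Among the H1 genes, Hist1h1c had the highest level and was not called. Hist1h1c stood at 40.9, 46.4, 32.7 and 49.0 CPM in spNK and at 69.0, 39.0, 22.5 and 29.3 in tuNK. The groups overlapped, since tuNK 1 was above every spNK library while tuNK 3 and 4 were below all of them. The log2 difference was -0.08 with a standard error of 0.32 and an adjusted p of 0.832, and without spNK 3 and tuNK 1 it was -0.60 with an adjusted p of 0.0188. Hist1h1e fell by 1.69 (standard error 0.30, adjusted p = 4.49e-04), from 13.3, 17.3, 8.82 and 16.2 CPM to 4.19, 6.50, 3.91 and 2.63, with no overlap. Part of its transcript is shared with the overlapping Hist1h2be, which holds 23.4% of its stretches. Hist1h1d stood at 13.4, 16.5, 10.6 and 17.7 CPM in spNK and at 8.15, 11.9, 6.17 and 6.22 in tuNK. It fell by 0.84 (standard error 0.25, adjusted p = 0.0112), although tuNK 2 lay above spNK 3. Hist1h1a and Hist1h1b were not called, with 3.05 and 2.23 CPM in spNK and 1.57 and 1.65 in tuNK.

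Of the 12 H4 genes tested, 4 were called lower and 0 higher, against 34% and 35.6% of all genes. The share called lower was near that of all genes. Hist1h4i (chr13:22040636-22041362, minus strand) stood at 11, 20.1, 16.8 and 27.6 CPM in spNK and at 2.95, 1.79, 3.40 and 2.86 in tuNK. Its fall of 2.78 (standard error 0.30, adjusted p = 1.28e-05) was the largest of the called histone genes, and its groups did not overlap. Hist1h4n, at 9.63, 7.04, 8.18 and 12.6 CPM in spNK and 4.06, 6.22, 4.32 and 5.13 in tuNK, fell by 0.92 (standard error 0.24, adjusted p = 0.00475). It shares 82.7% of its stretches with Hist1h4m, which was listed at 0 in every library. Hist1h4c stood at 3.77, 4.99, 4.00 and 3.90 CPM in spNK and 1.71, 2.31, 0.889 and 1.43 in tuNK and fell by 1.39 (standard error 0.34, adjusted p = 0.0034). Hist4h4, alone at its locus, had 2.15 ± 0.663 and 1.06 ± 0.358 CPM. Its adjusted p of 0.0475 was kept below the threshold in 2 of 8 fits that each left out 1 library, the groups overlapped, and the adjusted p was 0.227 without spNK 3 and tuNK 1. Hist1h4f had 0.0233, 0.071, 0.796 and 0.702 CPM in spNK and 1.01, 1.00, 2.26 and 0.867 in tuNK. Every tuNK library lay above every spNK library, but the gene was not called (log2 difference 1.69, standard error 0.90, adjusted p = 0.116).

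The H3 genes had low levels throughout. Hist1h3h, at 2.51, 1.97, 3.86 and 0.906 CPM in spNK and 0.517, 1.23, 0 and 4.08 in tuNK, was the highest and was not called (adjusted p = 0.591). Of 11 H3 genes tested, 1 was called higher and 0 lower, against 35.6% and 34% of all genes. That gene, Hist2h3c2, was at 0, 0, 0.286 and 0 CPM in spNK and at 0.905, 0.792, 0.991 and 0.536 in tuNK, which were 13.9 counts in spNK 3 and 34.7, 34.3, 38.6 and 21.4 counts in tuNK. The log2 difference of 3.43 had a standard error of 1.2 and an adjusted p of 0.0247, and the call was kept in 2 of 8 fits that each left out 1 library. The difference ran from 3.01 to 8.13 in these fits, the latter without spNK 3, which leaves spNK at 0 and makes the fitted value no bound. Hist2h3c2 shares 63.2% of its stretches with Gm20634, and 36.8% occur in no other gene. By the rule of at least 50% shared stretches it was joined to Hist2h3b and Hist2h3c1. These 3 in 1 row gave a log2 difference of -0.04 with a standard error of 0.42 and an adjusted p of 0.943. The call therefore did not hold for the sum of these genes.

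**Figure D2:**
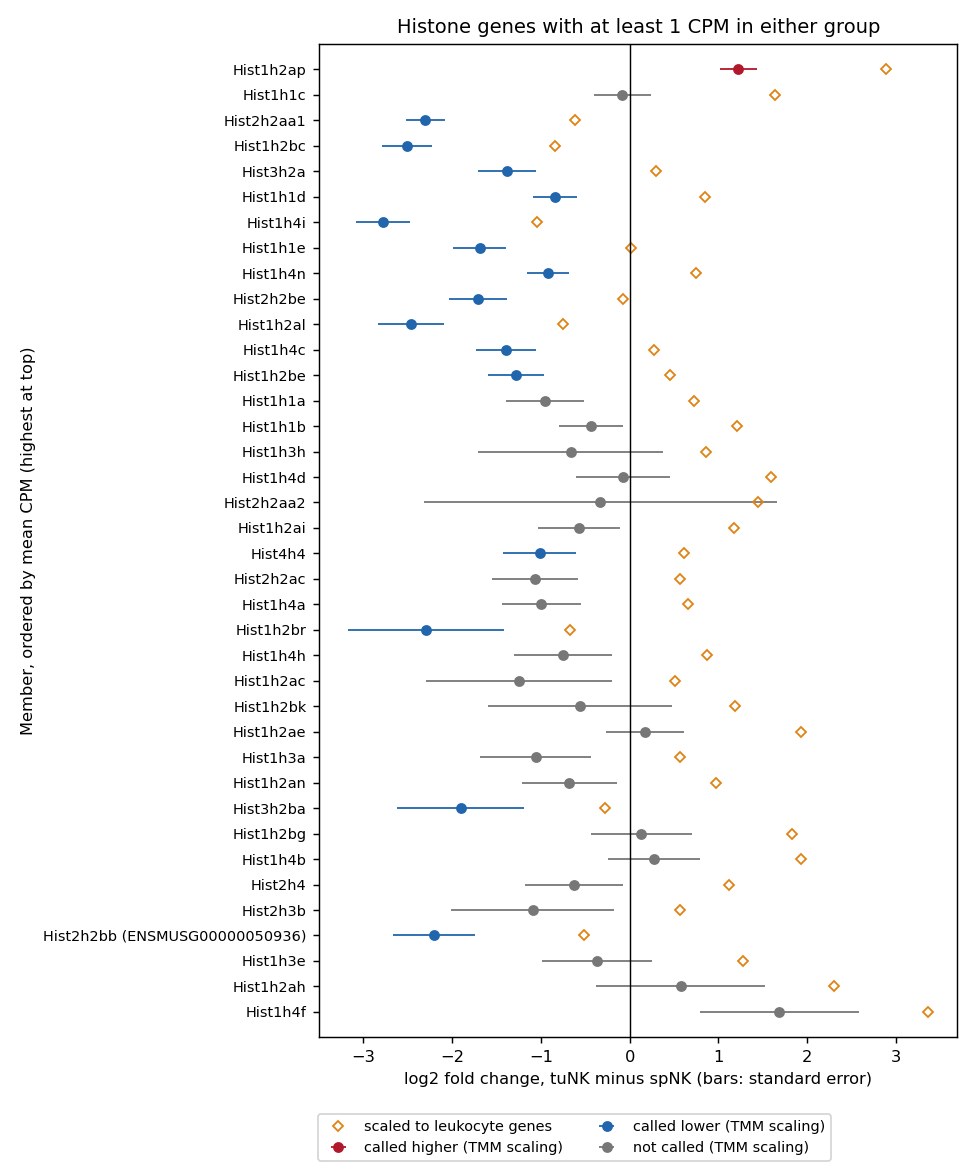
Log2 fold change (tuNK minus spNK, horizontal axis) of the 38 histone genes of at least 1 CPM in either group, ordered by mean CPM. Filled circles with bars give the TMM-scaled difference and its standard error, coloured by call, and open diamonds give the difference with libraries scaled to leukocyte genes. Hist1h2ap is the one circle called higher, and 15 circles are called lower.

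Of the 13 histone genes that did not pass the filter, 8 had counts in some library. The highest were Hist1h2ad, Hist1h2bq and Hist1h2ab. Hist1h2ad was given 8.93, 16.4, 93.4 and 58.5 counts in spNK and 0 in all of tuNK, and Hist1h2bq 21.1, 0, 46.7 and 62.6 in spNK and 0 in all of tuNK. Hist1h2ab had 0, 0, 34.1 and 0 counts in spNK and 4.30, 5.53, 34.5 and 16.4 in tuNK. In all 3 the replicates of a group differed widely, and 58.7%, 96.8% and 57% of their stretches occur in Hist1h2ah, Hist1h2br and Hist1h2ai. Of 29 genes with at least 60% of their 60-base stretches unique, 24 were tested, with 0 called higher and 11 lower. Of 40 genes below 60%, 32 were tested, with 2 called higher and 4 lower. Of all genes, 35.6% were called higher and 34% lower. The median coefficient of variation among spNK libraries, over genes of at least 1 CPM, was 0.296 in the first set and 0.439 in the second. The sets also differed in level, with a median over all their genes of 1.52 CPM in the first and 0.803 in the second. The part of level in this variation was not tested. The 2 remaining genes, Hist1h2bh and Hist1h2bm, were not matched to the annotation and are in neither set.

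Summed without TMM factors, all 71 histone genes came to 596, 622, 835 and 669 CPM in spNK and to 777, 1112, 1042 and 992 in tuNK. The groups overlapped, and the log2 difference of the group means of log2 levels was 0.53. Without Hist1h2ap the sum was 237, 271, 234 and 307 in spNK and 138, 132, 89.9 and 103 in tuNK, with no overlap and a difference of -1.19. On this scale, library size, the total therefore had the opposite sign with and without 1 gene. By class, H2B went from 51.8 ± 9.72 to 14.2 ± 2.58 CPM, H4 from 46.3 ± 9.1 to 17.4 ± 2.89, and H2A without Hist1h2ap from 73.6 ± 8.65 to 23.5 ± 2.9, each without overlap. Their log2 differences were -1.87, -1.40 and -1.65. H1, at 80.5 ± 13.6 and 53.1 ± 22.9 CPM, and H3, at 10.04 ± 2.34 and 7.67 ± 1.64, overlapped between groups. The Hist2 locus stood at 49.2, 52.3, 52.4 and 54.5 CPM in spNK and 13.9, 17.1, 11.5 and 13.5 in tuNK, a difference of -1.91. No test was made of these sums.

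**Figure D3:**
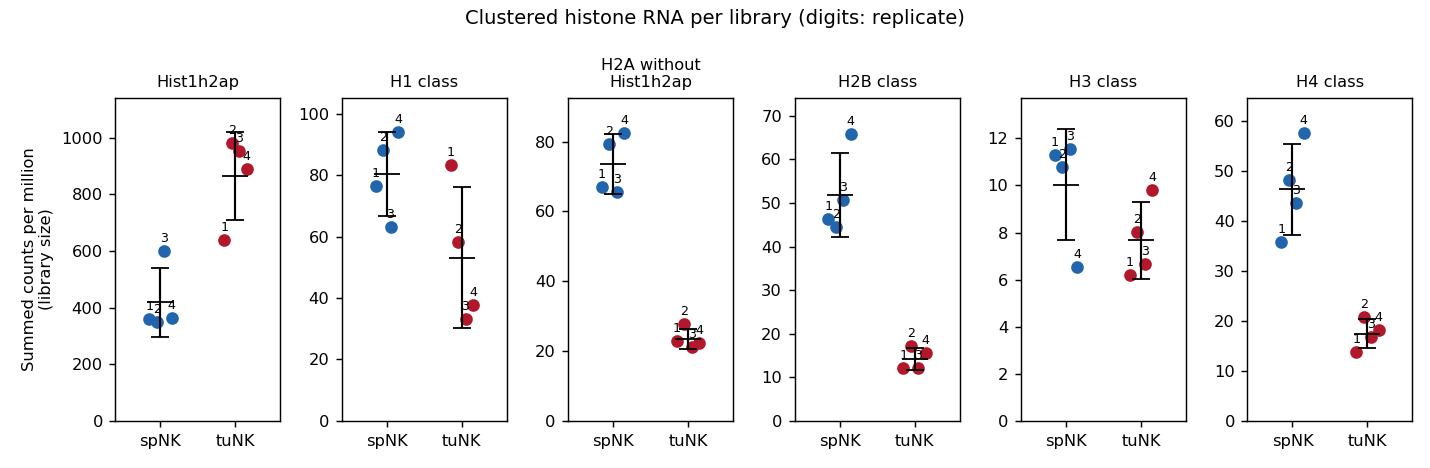
CPM (scaled by library size, linear axes that start at 0) of Hist1h2ap and summed over the members of each histone class, 1 point per library numbered by replicate, with the mean and SD of 4 libraries in black. Hist1h2ap is higher in tuNK, H2A without Hist1h2ap, H2B and H4 are lower without overlap, and H1 and H3 overlap.

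Many H2A and H2B genes start back to back. There were 12 head-to-head pairs with starts 175 to 305 bases apart, and each joined an H2A gene to an H2B gene. The members of 1 pair were called in opposite directions. Hist1h2ap was called higher and Hist1h2br, which starts 235 bases away, was called lower, at mean CPM of 394 and 921 for the first and 2.53 and 0.512 for the second in spNK and tuNK. In 2 pairs only the H2B gene was called lower, and these were Hist1h2bc beside Hist1h2ac (-2.51 and -1.25 on the log2 scale) and Hist2h2be beside Hist2h2ac (-1.71 and -1.07). In the other 9 pairs neither was called, but 4 of these hold a gene that was not tested and only 5 had both genes tested.

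The promoters of Hist1h2ap, the called gene with the highest level, and of Hist1h4i, the called gene with the largest fall on the log2 scale, are printed because they differ in their motifs. Both are RefSeq sequences of GRCm38.p6 from 250 bases before to 50 bases after the start, given 5′ to 3′ on the gene's strand, at chr13:21833426-21833725 (minus) for Hist1h2ap and chr13:22041313-22041612 (minus) for Hist1h4i. The window of Hist1h2ap also covers most of that of Hist1h2br on the other strand. Capitals mark CCAAT and its reverse complement ATTGG, and TATAAA, anywhere in the window. The TATAAA of Hist1h4i lies well before the start. Both windows also hold TATAAG, which was not searched and is not marked.
Hist1h2ap: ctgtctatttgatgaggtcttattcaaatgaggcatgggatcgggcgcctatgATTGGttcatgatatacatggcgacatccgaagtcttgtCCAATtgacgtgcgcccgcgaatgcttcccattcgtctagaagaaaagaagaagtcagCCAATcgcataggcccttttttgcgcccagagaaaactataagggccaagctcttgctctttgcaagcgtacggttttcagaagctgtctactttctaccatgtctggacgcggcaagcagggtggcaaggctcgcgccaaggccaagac
Hist1h4i: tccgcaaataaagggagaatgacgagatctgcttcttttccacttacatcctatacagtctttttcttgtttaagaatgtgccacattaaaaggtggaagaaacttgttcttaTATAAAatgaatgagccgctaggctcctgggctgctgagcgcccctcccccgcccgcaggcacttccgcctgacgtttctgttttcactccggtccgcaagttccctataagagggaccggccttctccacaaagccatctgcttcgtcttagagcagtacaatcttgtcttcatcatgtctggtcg
RefSeq promoters were matched for 60 of the 71 genes, 61 windows in all, and motifs were counted on both strands. CCAAT was found in 52 of 61 histone windows (85.2%) and in 37.4% of all 32851 windows of the same length. It was in every window of the H1, H2A, H2B and H3 genes and in 3 of 12 H4 windows. TATAAA was found in 57.4% against 13.6% of all windows. The octamer ATGCAAAT was found in 13 (21.3% against 1.74%), 7 H2A and 6 H2B, and TTTCGCGC, a form of the E2F site, in 9 (14.8% against 0.323%), 5 H2A and 4 H2B. Neither the Hist1h2ap window nor that of Hist1h4i held the octamer or TTTCGCGC.

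Other genes of histone supply were called in both directions, in shares to be read against the 35.6% higher and 34% lower of all genes. Of 10 replication-independent variant histone genes tested, which lie outside the clusters and make polyadenylated mRNA, 3 were called higher and 5 lower, with a median log2 difference of -0.18. Scaled to leukocyte genes, the scaling described last, 8 were higher and 0 lower. H2afy, encoding macroH2A, rose from 19.5 to 58.4 CPM (1.58 on the log2 scale, standard error 0.11, adjusted p = 4.10e-07) and H1f0, a linker histone of resting cells, from 27.1 to 161 CPM (2.58, standard error 0.21, adjusted p = 2.23e-06). H2afj fell from 189 to 63.2 CPM (adjusted p = 1.01e-06) and H3f3a from 857 to 539.9 (adjusted p = 1.49e-05). H2afz, the H2A variant of promoters, fell by 0.35 (1608.5 to 1259.9 CPM, adjusted p = 0.00614), and H3f3b, at 909 and 899 CPM, was not called (adjusted p = 0.906).

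Of 32 genes for histone transcription and histone mRNA processing, 13 were called higher and 7 lower, and 31 and 1 when scaled to leukocyte genes. The share called higher was near that of all genes. Slbp, whose product binds the stem-loop, fell by 0.43 (144 to 107 CPM, standard error 0.08, adjusted p = 6.86e-04) and Npat, the factor that switches on the clusters in S phase, by 1.06 (15.9 to 7.61 CPM, standard error 0.22, adjusted p = 0.00122). Zcchc11, which adds uridines to RNA 3′ ends, fell from 47.0 to 9.04 CPM (adjusted p = 7.48e-07) and Cstf2t, a cleavage factor, from 108 to 45.6 (adjusted p = 5.27e-06). E2f1, a transcription factor of S phase entry, rose from 22.1 to 98.9 CPM (adjusted p = 9.21e-07). Of 29 chaperone and nucleosome assembly genes, 14 were called higher and 9 lower, and 29 and 0 when scaled to leukocyte genes. These shares, too, are read as no result about the list. Ipo4, an importin that carries histones, rose from 28.9 to 147 CPM (adjusted p = 2.70e-07), Nap1l1 from 277 to 705 (adjusted p = 1.65e-06) and Asf1b, an H3 and H4 chaperone, from 38.6 to 96.3, while Ubn1 of the HIRA complex fell from 67.5 to 28.2 (adjusted p = 1.39e-06).

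Cell-cycle genes were mostly higher in tuNK, as Hist1h2ap was and the other called histone genes of at least 1 CPM were not. Of 40 S phase genes, 27 were called higher and 2 lower, with a median log2 difference of 0.72, and of 30 mitosis genes 29 were higher and 0 lower, with a median of 1.70, against 35.6% and 34% of all genes. Scaled to leukocyte genes, 40 and 30 were higher and 0 lower. Pcna, the clamp of the replication fork, rose from 410 to 773 CPM (0.91, standard error 0.12, adjusted p = 3.90e-05) and Prc1, a mitotic spindle gene, from 26.7 to 101 CPM (adjusted p = 3.97e-07), whereas Mki67, at 26.0 and 32.5 CPM, was not called (adjusted p = 0.496). Within spNK, library 3 stood out. Its S phase genes summed to 4697 CPM against 2963 to 3177 in the other spNK libraries, its mitosis genes to 1295 against 618 to 747, its erythroid markers to 1626 against 499 to 958, and Hist1h2ap was at 561 against 335 to 342. It also had the highest spNK sums of B cell markers (44.5 against 19.9 to 22.5), plasma cell markers (1208 against 296 to 915), neutrophil markers (166 against 38.5 to 131), macrophage markers (1126 against 916 to 985), mesenchymal markers (160 against 98.2 to 140.1) and epithelial markers (10.96 against 1.37 to 3.03), and the lowest of NK markers (14322 against 17307 to 20080). In the tuNK group the library with the lowest Hist1h2ap, tuNK 1, had the highest S phase sum (5134), mitosis sum (2699) and mesenchymal sum (4826). The part of other cell types, dividing or not, in the Hist1h2ap level was not tested.

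**Figure D4:**
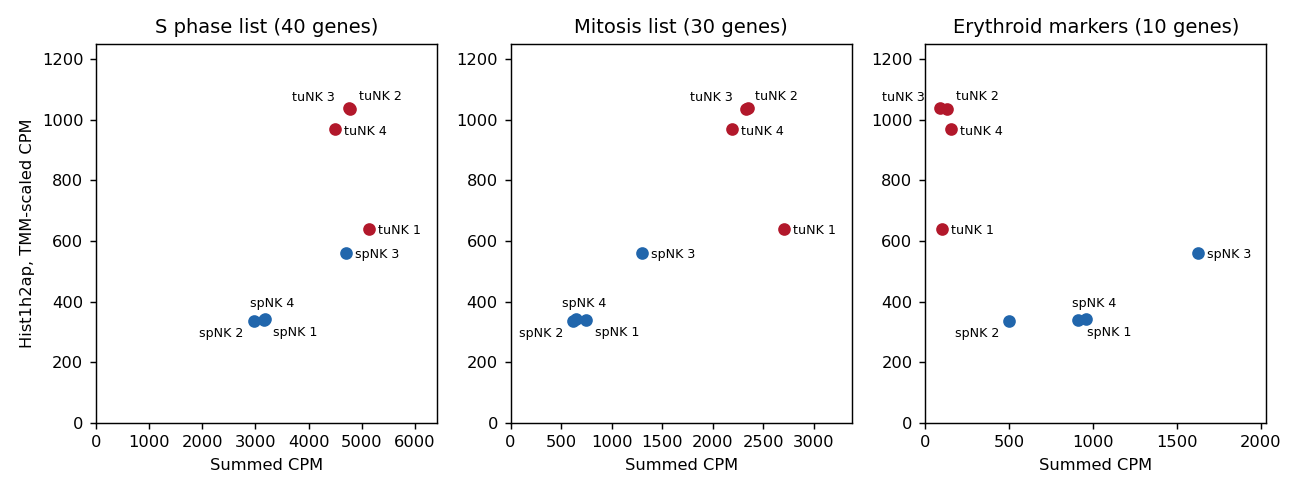
TMM-scaled CPM of Hist1h2ap (vertical) against the summed CPM of the S phase genes, the mitosis genes and the erythroid markers (horizontal), 1 point per library, spNK in blue and tuNK in red. Library spNK 3 lies above and to the right of the other spNK libraries in all 3 panels, and tuNK 1 is the lowest tuNK library on the vertical axis in each.

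The directions depended on what the libraries were scaled to. Genes expressed across leukocytes, 32 in number, were lower in tuNK for 31 of 32, with a median log2 difference of -1.67. With libraries scaled to these genes, log2 differences moved up by a median of 1.70, and 78.4% of all genes were called higher and 6.25% lower. On that scale 17 histone genes were called higher and 3 lower, with a median of 1.05 against 1.72 for all genes. Hist1h2ap was then higher by 2.89. The 3 called lower were Hist1h4i (-1.05, adjusted p = 0.0127), Hist1h2bc (-0.84, adjusted p = 0.0136) and Hist2h2aa1 (-0.62, adjusted p = 0.0282), which are genes of 3 classes that were lower under both scalings. Relative to leukocyte genes the summed H2B level changed by -0.0036 and the Hist2 locus by -0.05 on the log2 scale, H4 by 0.46, H1 by 1.18 and H3 by 1.49. All histone genes together changed by 2.39, by 0.67 without Hist1h2ap, and H2A without Hist1h2ap by 0.22, so the sums without Hist1h2ap had the opposite sign to that on library size. Of the 43 negative differences of single genes, 34 were positive on the leukocyte scale. The list was chosen in an earlier analysis of these data after mesenchymal genes had been seen, so this scaling is a description of how the histone values stand relative to those genes.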

How the data were processed

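Per the labels' protocols, RNA of sorted NK cells (8 libraries, 4 spNK and 4 tuNK) was sequenced after poly(A) selection. Per the submitters' processing notes, FastQC 0.11.9, STAR and Salmon were used with GRCm38 (mm10). The sources used here do not give STAR and Salmon versions, the annotation or the strand setting. The authors deposited estimated counts per gene (expected counts, not normalised) and TPM per gene, scaled to 1000000 per library. Of the value columns, 0 had no sample.

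Estimated counts were rounded, filtered with filterByExpr by group, scaled with TMM and tested with edgeR 4.0.16 (R 4.3.3), by the robust quasi-likelihood F test, with p adjusted by Benjamini-Hochberg over 14006 genes (threshold 0.05). Standard errors are the log2 difference divided by the root of the F statistic. The fit was tried on simulated data with as many rises as falls. That setting cannot test the choice of scaling, on which the directions here depend. Single genes are in TMM-scaled CPM, and sums use library size alone. The common dispersion was 0.071. Alternatives used limma 3.58.1 and DESeq2 1.42.0.

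Every histone gene of at least 1 CPM in a group mean could be named. Values in each library were given for the 12 with the highest mean CPM, the 5 largest rises and the 5 largest falls called, and those of other histone genes shown by library were chosen after their values were seen. Of each gene list up to 4 genes with the smallest adjusted p were eligible, plus Slbp, Npat, H2afz, H3f3b, Pcna and Mki67. Of 299 list entries 291 were found. The members, lists and tests were chosen with earlier results of these data known. Sequences came from GENCODE M21 transcripts, which held 69 of 71 identifiers, and RefSeq promoters (GRCm38.p6). Sharing was measured as 60-base stretches occurring in transcripts of other genes.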

Additional observations from a re-analysis of the deposited data

Results flagged for a closer look

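In 6 of 54 groups of 4 libraries checked, 1 library lay far from the other 3, with a gap to its nearest neighbour above 0.829 of the group's range, where chance gives about 1 in 20. Library spNK 3 was high for Hist1h2ap, at 561 TMM-scaled CPM against 335 to 342 in the other spNK libraries. The same library was high for the sums that contain it, at 601 CPM for Hist1h2ap and Hist1h2ao together against 351 to 363, and at 666 CPM for the H2A class against 426 to 445. For Hist2h3c2 it was the 1 spNK library above 0, at 0.286 CPM.

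Library spNK 4 was high for Hist1h2bc, at 32.0 CPM against 17.6 to 19.1, and low for the summed H3 class, at 6.56 CPM against 10.8 to 11.5. These are separate measurements, and spNK 4 was also the spNK library with the highest platelet marker sum (845 CPM against 479 to 562), whose part in these values was not tested.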

How the results depend on the processing

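Scaling to leukocyte genes moved the counts most, to 17 histone genes higher and 3 lower, 138 list genes higher and 1 lower, and a summed histone difference of 2.39. It turned the sign of 34 of 43 negative differences, among them, of the named genes called in either fit, Hist1h1c (1.63), Hist3h2a (0.29), Hist1h1d (0.85), Hist1h1e (0.019), Hist1h4n (0.75), Hist1h4c (0.27), Hist1h2be (0.45), Hist1h1b (1.21), Hist1h4d (1.59), Hist1h2ai (1.18) and Hist4h4 (0.62). A minimum of 1 CPM in 4 libraries left 1 histone gene higher, as did summing genes that share sequence. Limma-trend on log2 TPM called 26 lower with an offset of 1 and 23 with an offset of 0.1. Without the genes whose values were mostly not whole, 0 were higher and 3 lower, since most members drop out. Without Hist1h2ap the summed difference was -1.19. With 1 library left out at a time, 1 to 3 histone genes were higher and 13 to 18 lower, and the summed difference was 0.46 to 0.63. Hist2h2aa2 ran from -0.76 to 9.15, the latter without spNK 1, which leaves spNK at 0 and makes the fitted value no bound. Correlations of same-numbered deviations were small, from -0.0081 to 0.042. Of the 4 spNK libraries, 3 correlated best with the tuNK library of their own number. These values do not settle whether replicate numbers pair the libraries. A replicate block gave 9555 genes called, 2 histone genes higher and 14 lower, losing Hist4h4 (adjusted p = 0.098). Summing copies, dropping Hist1h2ap and leaving out spNK 3 with tuNK 1 were chosen after seeing the data. DESeq2 (2 higher, 16 lower), its size factors, library size alone, no filter and summed TPM stayed within 1.5 times of the counts or within the spread of the sum. For genes with few counts the depth limits what can be called.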
